A study of Mus musculus with 18 samples.

Results

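The response of the wild-type (WT) mouse mammary gland to the carcinogen DMBA (7,12-dimethylbenz[a]anthracene), 2 weeks after the last dose, was measured by RNA sequencing. The comparison takes in 6 of the series' 18 libraries: 3 of WT glands at 2 weeks and 3 of untreated WT glands, with all 15482 genes that passed a filter on low counts. Treated mice were given 1 mg of DMBA in oil by gavage once a week, for 6 doses in all, the first at 12 to 14 weeks of age. Every group was of mixed C57BL/6Jx129 background, and every library was made from whole mammary gland from which lymph nodes were excluded. Untreated mice are not described as having had oil, and the sources used here do not give their age at sampling, so DMBA, oil and gavage cannot be told apart. The numbers in the names of the 2-week libraries all lie above those of the untreated ones. What they count is not stated, and a difference between cohorts of mice cannot be told apart from the treatment. Glands of Cip2a-/- mice under the same schedule, 3 untreated and 3 at 2 weeks, share no library with the WT comparison and are given beside it. The product of Cip2a holds back the tumour-suppressing phosphatase PP2A. Libraries carry numbers 1 to 3 in each group and are called glands 1 to 3 below. The labels do not state that each comes from a different mouse, so p-values measure the spread between these samples, which may be technical in part.

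DMBA is taken up through the gut and converted by cytochrome P450 enzymes, which the aryl hydrocarbon receptor induces, into epoxides that bind DNA. Cells with damaged DNA stabilise the transcription factor p53, which switches on genes for cell cycle arrest, apoptosis, DNA repair and secreted stress signals. A mammary gland holds ducts of luminal and basal epithelial cells in a pad of white fat with vessels, fibroblasts and immune cells. Luminal cells that carry receptors for oestrogen, progesterone and prolactin sense the hormonal state of the animal and pass it on to their neighbours. In RNA from whole tissue, more cells of a type and more RNA per cell cannot be told apart.

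Total counts of the 6 WT libraries ranged from 17272157 to 24586404. Levels are given as CPM, counts per 1000000 counts of a TMM-scaled library, for glands 1, 2 and 3 in that order, and differences as log2 fold changes (2 weeks over untreated) with a standard error. Epithelial, fat, muscle and lymphoid markers were found in both groups, with wide differences between glands of 1 group. Untreated gland 1 stood apart on the first principal component of the 6 libraries, which held 45.6% of the variance. It had the most B cell, T cell and skeletal muscle RNA and the least epithelial RNA of the 3 untreated glands. Cip2a, listed in the table as C330027C09Rik, stood at 1.82, 1.62 and 0.831 CPM untreated and 3.13, 3.301 and 2.82 CPM at 2 weeks in WT, and at 0.0598 CPM or less in all 6 Cip2a-/- glands.

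No gene passed the test in WT. With edgeR's quasi-likelihood test and Benjamini-Hochberg adjustment over all genes, 0 of 15482 (0%) were called at an adjusted p under 0.05. At an unadjusted p under 0.05, 450 genes (2.91%) had higher values at 2 weeks and 205 (1.32%) had lower ones. The spread in that fit is shared by all 18 libraries. Fitted on the 6 WT libraries alone, edgeR called 0 of 14859 genes. At an unadjusted p under 0.05 it then gave 1475 higher and 1173 lower genes. Unadjusted counts below are from the fit on 18 libraries unless stated. DESeq2 called 17 genes, 8 higher and 9 lower, and limma-voom with quality weights called 528, 338 higher and 190 lower. Over all genes the median log2 fold change was -0.02, and 7380 (47.7%) were positive. The 3 values at 2 weeks all lay above the 3 untreated ones for 2196 genes (14.2%) and all below them for 1800 (11.6%). These shares are the background for each group of genes below, and values are given for its members without calling them changed.

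The genes with p53 control are given first, since their products carry the response to damaged DNA. Of the 47 measured members of 3 lists of p53 target genes, 38 had a promoter sequence in the RefSeq table (build GRCm38.p6). The 250 bases before the start of each gene, as that table gives it, were searched for the p53 response element, which is a pair of 10-base repeats. Which transcript of a gene each start belongs to was not examined. Up to 2 mismatches to the consensus and a spacer of up to 1 base were allowed, and the C and G in the core of each repeat were required. The element reads alike on both strands, so 1 search covers both. It was found in 3 of the 38 (7.89%) and in 120 of 17589 genes with a promoter (0.682%). The lists hold known p53 targets, so the larger share among them says nothing about the comparison of the glands. The search was added after the values were known. The 3 genes were Cdkn1a, Bax and Ccng1, whose windows are printed 5′ to 3′ along the gene's strand to show the element, in capitals. A match is a run of letters and was not tested for binding, and the other 35 lack only these letters in this window.
Cdkn1a, chr17:29090729-29090978, plus strand, element of 20 bases with 1 mismatch, 51 to 32 bases before the start.
Cdkn1a: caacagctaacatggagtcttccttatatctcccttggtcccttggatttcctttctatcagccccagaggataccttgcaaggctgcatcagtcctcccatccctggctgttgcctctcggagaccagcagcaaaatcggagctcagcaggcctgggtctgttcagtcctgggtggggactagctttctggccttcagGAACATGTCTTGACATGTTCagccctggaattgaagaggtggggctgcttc
Bax, chr7:45466899-45467148, minus strand, element of 21 bases with a spacer of 1 and 2 mismatches, 201 to 181 bases before the start.
Bax: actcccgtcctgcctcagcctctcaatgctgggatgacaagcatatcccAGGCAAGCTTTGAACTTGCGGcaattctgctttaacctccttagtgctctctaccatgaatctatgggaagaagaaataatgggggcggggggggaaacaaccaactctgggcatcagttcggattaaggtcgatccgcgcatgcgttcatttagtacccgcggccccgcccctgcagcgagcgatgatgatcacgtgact
Ccng1, chr11:40755287-40755536, minus strand, element of 20 bases with 1 mismatch, 195 to 176 bases before the start.
Ccng1: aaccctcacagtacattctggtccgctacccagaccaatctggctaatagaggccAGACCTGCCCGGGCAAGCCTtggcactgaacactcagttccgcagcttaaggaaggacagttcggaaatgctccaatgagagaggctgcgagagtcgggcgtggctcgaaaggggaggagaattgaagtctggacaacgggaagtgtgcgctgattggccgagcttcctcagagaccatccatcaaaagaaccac

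Cdkn1a encodes p21, the inhibitor of cyclin-dependent kinases through which p53 halts the cell cycle. Its level was 29.4, 38.5 and 84.6 CPM in the untreated glands and 139, 164 and 695 CPM at 2 weeks. The groups did not overlap, and 2-week gland 3 stood more than 4 times above gland 2. The log2 fold change was 2.71 ± 0.78 (SE), with an adjusted p of 0.953 by edgeR, and without 2-week gland 3 it was 1.58. Bax, whose product opens the outer mitochondrial membrane in apoptosis, went from 45.98, 36.01 and 36.9 to 46.4, 57.8 and 114 CPM (0.88 ± 0.30, adjusted p = 0.953 by edgeR). Here 2-week gland 1 barely exceeded untreated gland 1, and gland 3 was again the highest. Ccng1, which encodes cyclin G1, stood at 178, 133 and 128 CPM untreated and 122, 178 and 358 CPM at 2 weeks. Its groups overlapped (0.59 ± 0.63), so of the 3 genes with the element in this window, 1 had no separation between the groups.

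Among the 17 measured genes of p53 arrest and feedback, 16 had positive values, with a median of 0.77 against -0.02 over all genes. For 11 of them the groups did not overlap, all with higher values at 2 weeks, and 5 had an unadjusted p under 0.05. Psrc1, which encodes a microtubule-binding protein of the mitotic spindle, had 1.65, 1.17 and 2.71 CPM untreated and 3.997, 7.903 and 33.1 CPM at 2 weeks (3.02 ± 0.90). Trp53inp1, which encodes a nuclear protein that promotes p53 activity, had 15.9, 24.9 and 24.4 CPM untreated and 53.3, 59.8 and 87.1 CPM at 2 weeks (1.62 ± 0.53). Each 2-week gland exceeded the highest untreated gland by more than 2 times for Trp53inp1. Zmat3, an RNA-binding zinc finger gene, had 20.6, 21.5 and 26.5 CPM untreated and 33.4, 43.1 and 99.1 CPM at 2 weeks (1.36 ± 0.35). Mdm2, whose product marks p53 for degradation, had 48.2, 47.2 and 51.7 CPM untreated and 58.5, 67.9 and 125 CPM at 2 weeks (0.77 ± 0.30). In both genes gland 3 lay far above glands 1 and 2, which exceeded the untreated range by less. Sesn1 was the 1 member with a negative value (-0.15), and Trp53 itself, which is regulated mainly as a protein, stood at 71.8, 72.97 and 76.98 CPM untreated and 66.8, 56.4 and 63.7 CPM at 2 weeks (-0.25 ± 0.26), slightly below the untreated range in every treated gland.

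The 15 genes of p53 apoptosis had a median of 0.45, with 10 positive, 5 without overlap in the higher direction and the same number at an unadjusted p under 0.05. Eda2r, a death receptor of the TNF receptor family, had 2.13, 2.07 and 3.16 CPM untreated and 7.56, 10.4 and 24.6 CPM at 2 weeks (2.53 ± 0.75). Tnfrsf10b, the receptor for the ligand TRAIL, had 18.95, 16.9 and 18.9 CPM untreated and 22.1, 28.4 and 35.7 CPM at 2 weeks (0.65 ± 0.24). The remaining 2 without overlap beside Bax were Ei24 (0.45 ± 0.17) and Apaf1 (0.76 ± 0.29), the scaffold of the apoptosome. The death genes Fas (-0.08 ± 0.18) and Pmaip1 (-0.14 ± 0.87), both classical p53 targets, had values near 0. Casp1, an inflammatory caspase, was lower in every 2-week gland than in any untreated one (-0.58 ± 0.30).

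The 15 p53 targets of repair, metabolism and secretion had a median of 0.09, the lowest of these 3 lists, and 10 were positive. Gdf15, at chr8:70629393-70632470 (GRCm38), encodes a secreted stress cytokine of the TGF-β superfamily. It had 0.564, 0.614 and 0.388 CPM untreated and 4.33, 8.32 and 24.99 CPM at 2 weeks. Every 2-week gland stood more than 7 times above the highest untreated gland, and the 2-week glands differed among themselves by more than 5 times. The log2 fold change of 4.57 ± 0.73, or 23.7 times, had an adjusted p of 0.149 by edgeR, with a range over the alternatives from 2.58e-07 (DESeq2) to 1.00 (without untreated gland 1). Polk, which encodes a DNA polymerase that copies past bulky adducts of polycyclic hydrocarbons, had 8.805, 10.4 and 14.6 CPM untreated and 16.4, 23.7 and 30.3 CPM at 2 weeks (1.06 ± 0.36). The thiamine transporter gene Slc19a2 had 5.86, 6.09 and 7.81 CPM untreated and 9.29, 13.6 and 22.9 CPM at 2 weeks (1.21 ± 0.36). Neither gene had overlap between the groups, and gland 3 was the highest in both. Ephx1, the microsomal epoxide hydrolase of hydrocarbon metabolism, had 135, 148 and 182 CPM untreated and 174, 212 and 369 CPM at 2 weeks (0.70 ± 0.23), with gland 1 within the untreated range. The repair genes Xpc (0.02 ± 0.19) and Ddb2 (-0.05 ± 0.20), which recognise adducts, and the metabolic gene Cmbl (-0.64 ± 0.46) had values near 0 or below, and for Cmbl the groups did not overlap.

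Across the 47 p53 targets, 36 had positive values and 14 had an unadjusted p under 0.05, each in the higher direction. Without 2-week gland 3, 33 were positive and 6 had an unadjusted p under 0.05. The groups did not overlap for 20 genes with higher values and for 2, Casp1 and Cmbl, with lower ones. The highest of the 3 treated values came from 2-week gland 3 in 32 genes, from gland 1 in 10 and from gland 2 in 5. Against the mean of the untreated glands, the median log2 ratio of the 47 was 0.17 in gland 1, 0.28 in gland 2 and 0.69 in gland 3. Gland 3 thus held the largest part of the difference, and without it the median over the 47 fell from 0.45 to 0.26, that of the arrest list from 0.77 to 0.37 and that of the apoptosis list from 0.45 to 0.21. Summed levels of epithelial markers, at 2171, 2234 and 3795 CPM in the same glands, were also highest in gland 3, and how far this enters the p53 values was not tested. A per-gland plot of these genes shows the order.

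**Figure D1:**
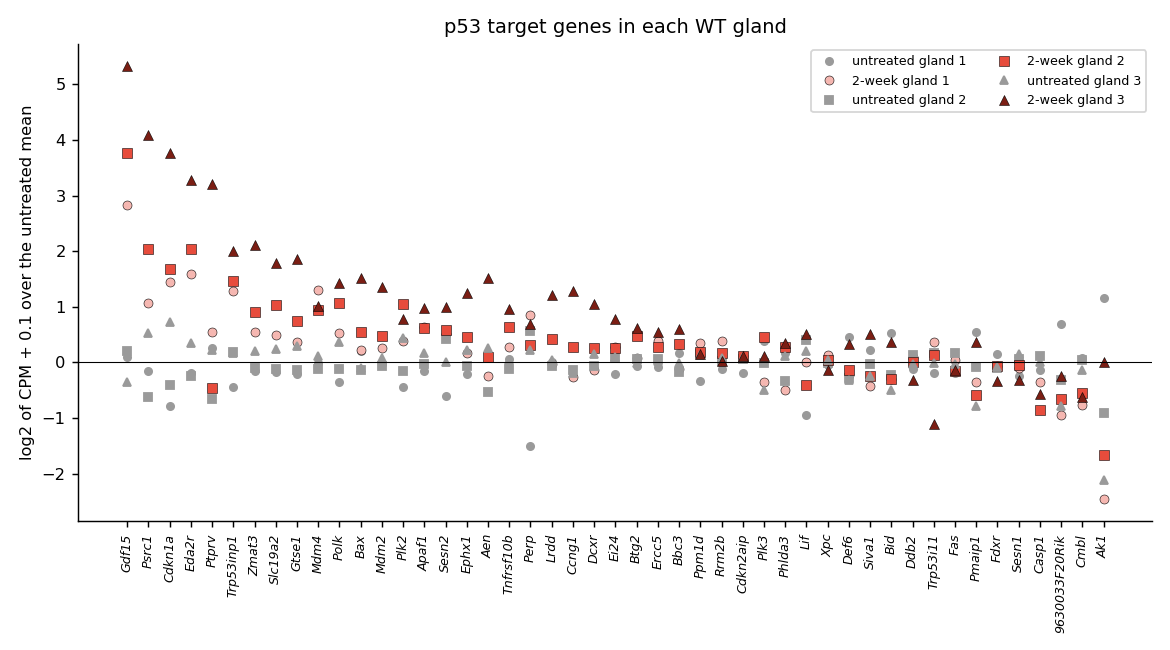
The 47 measured p53 target genes in the 6 WT glands, as log2 of CPM + 0.1 over the untreated mean (vertical axis), 1 column per gene in order of the fitted log2 fold change. Grey symbols are untreated glands and red symbols 2-week glands, with circles, squares and triangles for glands 1, 2 and 3; the dark triangles of 2-week gland 3 are the highest treated value in 32 of the 47 genes.

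In Cip2a-/- glands, which share no library with the WT glands, 40 of the 47 p53 targets had positive values. An unadjusted p under 0.05 was seen for 26, of which 24 were in the higher direction and the rest in the lower. Of all genes there, 50.3% had positive values, and 2.07% had higher and 2.47% lower values at an unadjusted p under 0.05. The median of the 47 was 0.73 against 0.45 in WT, and 34 of the 47 had a larger value in Cip2a-/-. Gdf15 and Ephx1 passed the test there, 2 of 15482 genes (0.0129%), and both rose. Gdf15 went from 0.179, 0.33 and 0.869 to 25.4, 20.1 and 13.5 CPM (5.40 ± 0.76, adjusted p = 0.0369 by edgeR). Ephx1 went from 101, 97.8 and 111 to 344, 407 and 295 CPM (1.76 ± 0.24, adjusted p = 0.0369 by edgeR). Neither call held in every alternative: without WT untreated gland 1, 2 or 3, or without WT 2-week gland 2, which lend only their spread, edgeR called 0 genes in Cip2a-/-. Cdkn1a had 29.4, 43.8 and 65.2 CPM untreated and 1081, 655 and 432 CPM at 2 weeks (3.97 ± 0.82), and Ccng1, which overlapped in WT, had 194, 95.1 and 129.7 CPM untreated and 1143, 399.5 and 221 CPM at 2 weeks (2.07 ± 0.65). The difference of the responses, WT minus Cip2a-/-, was -1.26 ± 1.04 for Cdkn1a and -1.06 ± 0.33 for Ephx1. No gene passed the test of that difference (0 of 15482, 0%; 252 genes, 1.63%, in the positive and 197, 1.27%, in the negative direction at an unadjusted p under 0.05; calls by DESeq2 numbered 7 and by limma-voom 13).

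Over all genes, the 10 of smallest p with higher values and the 10 with lower values were listed, among genes with a name other than a locus name and a mean of at least 5 CPM whose groups did not overlap. Since p and separation chose them, their WT values are a description. Higher values were seen for Gdf15, Adam12, Agps, Gadd45g, Tet3, Cmtm6, Igf2r, Mtss1, Tbx18 and Usp6nl. Adam12 (chr7:133883199-134225097, GRCm38), a membrane metalloprotease of mesenchymal cells, stood at 18.7, 16.5 and 17.1 CPM untreated and 34.96, 41.6 and 50.2 CPM at 2 weeks (1.28 ± 0.25, adjusted p = 0.562 by edgeR). Its untreated glands were nearly level, and each treated gland lay well above them. Agps (chr2:75832177-75931350), the peroxisomal enzyme that forms the ether bond of plasmalogens, had 43.7, 46.8 and 49.2 CPM untreated and 105, 183 and 138 CPM at 2 weeks (1.61 ± 0.32). Gadd45g (chr13:51846675-51848475), a stress gene that slows the cell cycle, had 27.02, 32.7 and 27.2 CPM untreated and 50.7, 65.9 and 143 CPM at 2 weeks (1.58 ± 0.34). In the latter 2 genes a different gland was highest, gland 2 for Agps and gland 3 for Gadd45g. Tet3, a dioxygenase that oxidises 5-methylcytosine, had 51.4, 47.01 and 57.2 CPM untreated and 101, 91.5 and 80.3 CPM at 2 weeks (0.81 ± 0.19). Igf2r, the receptor that clears insulin-like growth factor 2, had 102, 94.5 and 99.9 CPM untreated and 164, 161 and 190.0 CPM at 2 weeks (0.80 ± 0.19). Both were nearly level within each group.

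Lower values were seen for Atp6v0e2, Cacna1h, Slc26a10, Podxl2, Rasa4, Metrn, Dusp26, Cdkn1c, Mtap7d1 and Plvap. Atp6v0e2 (chr6:48537569-48541801, GRCm38) encodes a membrane subunit of the proton pump that acidifies lysosomes and had the smallest p of all genes. Its level was 61.1, 49.1 and 52.9 CPM untreated and 21.6, 27.99 and 24.9 CPM at 2 weeks (-1.13 ± 0.18, adjusted p = 0.149 by edgeR, from 3.52e-06 with DESeq2 to 1.00 without untreated gland 1). Atp6v0e, its paralogue, stood at 104, 86.04 and 91.9 CPM untreated and 86.9, 85.5 and 95.2 CPM at 2 weeks (-0.08 ± 0.20), with overlap. The voltage-gated calcium channel gene Cacna1h had 7.07, 7.59 and 6.09 CPM untreated and 3.71, 3.39 and 3.49 CPM at 2 weeks (-0.97 ± 0.22). Slc26a10, an anion transporter family gene, had 15.3, 25.1 and 27.5 CPM untreated and 6.93, 9.67 and 6.18 CPM at 2 weeks (-1.57 ± 0.38). Cdkn1c encodes p57, a cyclin-dependent kinase inhibitor of quiescent cells, and had 39.3, 36.3 and 42.8 CPM untreated and 21.3, 24.7 and 15.1 CPM at 2 weeks (-0.95 ± 0.29). The sign was thus opposite to that of Cdkn1a, the related inhibitor under p53 control. Plvap, which forms the diaphragms of capillary pores, had 181, 243 and 208 CPM untreated and 106, 108 and 98.8 CPM at 2 weeks (-1.01 ± 0.33), each 2-week gland lying far below the untreated ones.

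The Cip2a-/- glands entered the choice of these genes only through the spread shared in the fit, so they are not wholly independent of it. In them, 8 of the 10 genes with higher values in WT were also positive and 5 did so without overlap, against 6.93% of all genes with higher values and no overlap there. These 5 were Gdf15, Agps, Gadd45g, Cmtm6 and Tbx18. Agps had 66.8, 47.4 and 50.9 CPM untreated and 97.1, 159.8 and 82.5 CPM at 2 weeks (1.04 ± 0.32), and Gadd45g 23.2, 29.98 and 36.8 CPM untreated and 43.3, 75.3 and 67.4 CPM at 2 weeks (1.05 ± 0.33). Adam12 had 27.6, 33.4 and 25.8 CPM untreated and 32.6, 24.8 and 33.6 CPM at 2 weeks (0.07 ± 0.25), the untreated Cip2a-/- glands already lying above the untreated WT ones. The 10 genes with lower values in WT had 6 negative values in Cip2a-/-, 2 of them without overlap, Cacna1h and Slc26a10, against 5.48% of all genes. Slc26a10 had 20.3, 15.1 and 9.903 CPM untreated and 6.1, 6.48 and 6.96 CPM at 2 weeks (-1.21 ± 0.38). Their medians were -1.02 in WT and -0.23 in Cip2a-/-, and for the higher 10 they were 0.93 and 0.27. Atp6v0e2 ran the other way, from 25.9, 23.5 and 34.4 to 45.9, 38.02 and 41.4 CPM in Cip2a-/- (0.58 ± 0.17), where the untreated glands were at the level of the treated WT glands. The difference of the responses was -1.71 ± 0.25 with an adjusted p of 0.0946 by edgeR, which did not pass.

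**Figure D2:**
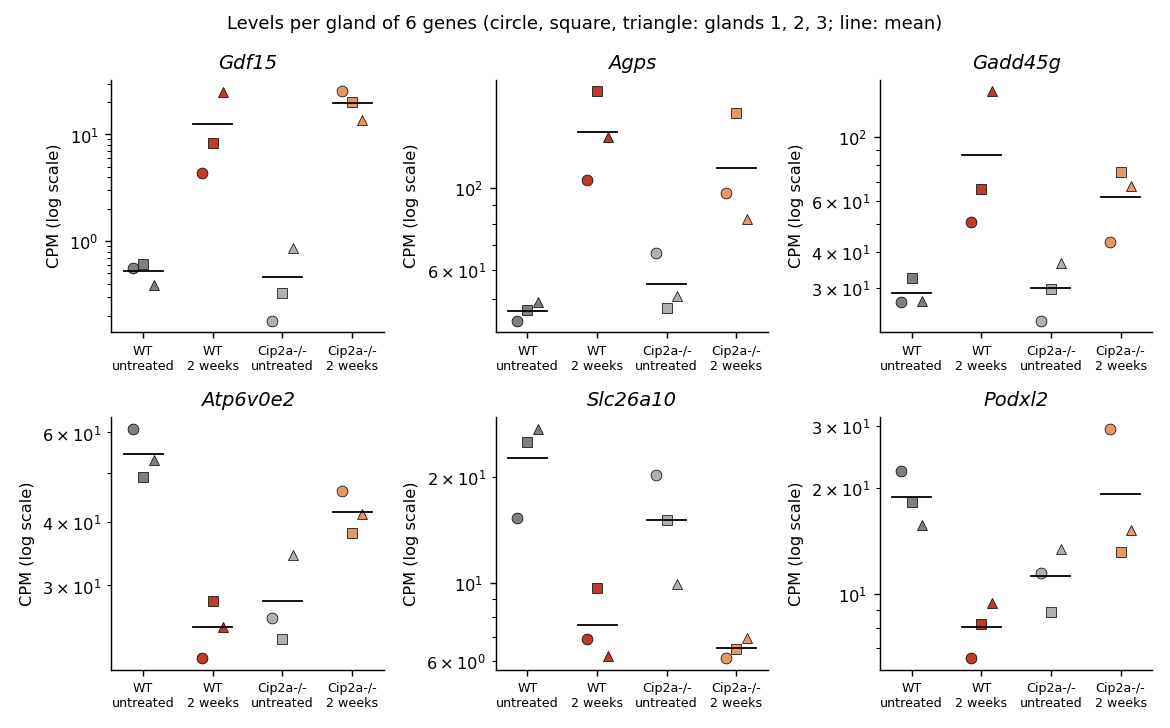
CPM (log axis) of 6 genes in WT and Cip2a-/- glands, untreated and 2 weeks after DMBA. Circles, squares and triangles are glands 1, 2 and 3 and the line is the mean of 3; Gdf15, Agps and Gadd45g have no overlap in either genotype, Slc26a10 is lower in both, and Atp6v0e2 and Podxl2 are lower in WT and have higher means at 2 weeks in Cip2a-/-.

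General epithelial genes had higher values in the treated WT glands, and the medians of basal and luminal progenitor genes lay near that of all genes. All 20 measured genes of epithelial identity were positive, with a median of 0.74 (range over the alternatives 0.45 to 0.85), and for 8 the groups did not overlap. Without untreated gland 1 the median was 0.45, with 17 of 20 positive. One, Prom1, had an unadjusted p under 0.05, and 9 did in the fit on the 6 WT libraries alone. Prom1, a membrane protein of luminal cells, had 6.38, 14.2 and 12.5 CPM untreated and 40.4, 28.6 and 48.5 CPM at 2 weeks (1.83 ± 0.58). The luminal keratin gene Krt8 had 88.2, 151 and 222 CPM untreated and 344, 339 and 771 CPM at 2 weeks, and Krt19 129, 165 and 236 CPM untreated and 359, 488 and 1026 CPM at 2 weeks. In both, gland 3 was the highest treated gland and gland 1 the lowest untreated gland. The adhesion gene Epcam, by contrast, overlapped (74.99, 138 and 182 CPM untreated and 194, 136 and 176 CPM at 2 weeks, 0.36 ± 0.90). Krt14, a keratin of basal cells, overlapped as well (18.1, 73.3 and 77.8 CPM untreated and 59.2, 39.8 and 42.4 CPM at 2 weeks, -0.26 ± 1.12), and the 15 basal genes had a median of -0.09, with 7 positive. Of the basal genes, 2 were higher without overlap and 1 had an unadjusted p under 0.05. The 15 luminal progenitor genes had a median of -0.03, also with 7 positive, and one of -0.79 without 2-week gland 1. Over the alternatives the basal median ranged from -0.44 to 0.20 and the progenitor median from -0.79 to 0.13. Each of these medians changed sign in 5 of 16 alternatives. Summed over the epithelial list, levels were 813, 1344 and 1798 CPM untreated and 2171, 2234 and 3795 CPM at 2 weeks. Summed white fat markers were 77638, 67833 and 66024 CPM untreated and 58488, 65611 and 58144 CPM at 2 weeks, and the part of the makeup of the piece of gland in these values was not tested. In Cip2a-/- glands the epithelial list had a median of 0.05, with 11 of 20 positive and 3 higher without overlap.

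Genes of hormone-sensing luminal cells had a median of 0.54, with 11 of 14 positive and 4 higher without overlap, and one of 0.35 without 2-week gland 3. Pgr, the progesterone receptor, had 1.95, 3.52 and 5.76 CPM untreated and 22.1, 19.9 and 58.2 CPM at 2 weeks (3.16 ± 1.24, unadjusted p = 0.0224 by edgeR). Prlr, the prolactin receptor, had 39.8, 58.1 and 136 CPM untreated and 152, 337 and 438 CPM at 2 weeks (1.98 ± 0.85). Gata3, a transcription factor of luminal cells, had 40.2, 67.7 and 72.4 CPM untreated and 94.7, 127 and 138 CPM at 2 weeks (1.00 ± 0.55), and Esr1, the oestrogen receptor, 13.5, 11.7 and 11.4 CPM untreated and 15.7, 29.8 and 22.1 CPM at 2 weeks (0.89 ± 0.66). For each of these 4 genes the treated glands lay above all untreated ones. Calca, the calcitonin gene that progesterone induces in luminal cells, lay below them, with 23.6, 9.32 and 253 CPM untreated and 8.43, 1.39 and 1.35 CPM at 2 weeks (-4.68 ± 2.26), and untreated gland 3 carried most of its level. Tnfsf11, which encodes the progesterone-induced paracrine signal RANKL, had 0.694, 0.614 and 16.5 CPM untreated and 0.433, 0.139 and 2.103 CPM at 2 weeks (-2.71 ± 2.10), with untreated gland 3 again the highest and with overlap. Other hormone-induced members overlapped with positive values, such as Areg, a ligand of the EGF receptor (2.26 ± 2.03), and Wnt4 (0.58 ± 0.86). Pgr and Prlr had no overlap in Cip2a-/- either, at 2.12 ± 1.19 and 1.32 ± 0.84. The sources used here do not give the stage of the oestrous cycle, which cannot be told apart from the groups.

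Milk protein genes were split by gland. All 12 measured members were highest in 2-week gland 1 among the treated glands, and none separated the groups. Csn2, which encodes β-casein, had 29.8, 73.3 and 88.8 CPM untreated and 769, 0.232 and 10.8 CPM at 2 weeks (2.02 ± 2.73), so that 2-week gland 1 was above and glands 2 and 3 were below every untreated gland. The list median of 0.81 turned to -1.86 without 2-week gland 1. Growth factor and receptor genes of the mammary gland had a median of 0.33, with 13 of 16 positive, and one of 0.12 without untreated gland 1. Fgfr2, a receptor needed by mammary epithelium, had 46.5, 60.6 and 87.2 CPM untreated and 113, 211 and 169.6 CPM at 2 weeks (1.35 ± 0.61). Erbb3, a partner of the receptor ERBB2, had 12.4, 21.6 and 36.9 CPM untreated and 87.1, 43.1 and 42.1 CPM at 2 weeks (1.28 ± 0.83), and Wnt5a had 25.3, 26.97 and 37.5 CPM untreated and 54.6, 48.1 and 46.3 CPM at 2 weeks (0.73 ± 0.38). These 3 were the members without overlap.

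Genes of mitosis and of S phase differed in their values. Of 30 genes of the G2 phase and mitosis, 28 were positive, with a median of 0.63. The groups did not overlap for 10, and 0 had an unadjusted p under 0.05 (8 in the fit on the 6 WT libraries alone). Cenpf, a kinetochore gene, had 1.995, 1.62 and 0.72 CPM untreated and 4.09, 5.02 and 3.37 CPM at 2 weeks (1.52 ± 0.88), and Kif11, a spindle motor gene, 3.73, 1.898 and 1.495 CPM untreated and 5.68, 4.83 and 5.43 CPM at 2 weeks (1.16 ± 0.77). Levels were under 6 CPM in every gland, and untreated gland 3 was the lowest for both. The 30 S phase genes under control of E2F had a median of -0.02, with 13 positive, 2 higher and 4 lower without overlap. Hells, a chromatin remodeller of dividing cells, had 1.91, 1.73 and 1.27 CPM untreated and 2.99, 2.56 and 2.57 CPM at 2 weeks (0.72 ± 0.46), whereas Ccne1, cyclin E1, had 9.803, 5.14 and 6.65 CPM untreated and 3.804, 5.07 and 4.46 CPM at 2 weeks (-0.70 ± 0.37). In Cip2a-/- glands the median of the G2 and mitosis list was -0.51, with 1 of 30 positive, and that of the S phase list -0.60. The summed G2 and mitosis levels were 66.1, 410.1 and 458 CPM in the untreated Cip2a-/- glands and 172, 121 and 92.9 CPM in the untreated WT glands. The difference between the genotypes in these genes was not tested as a list.

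Genes of DNA repair and checkpoints had a median of 0.06 over 34 members, with 20 positive, 7 higher and 4 lower without overlap. Besides Polk, Trp53bp1 had an unadjusted p under 0.05. It encodes 53BP1, which binds chromatin at double-strand breaks, and had 28.5, 31.7 and 32.9 CPM untreated and 50.7, 38.7 and 49.3 CPM at 2 weeks (0.58 ± 0.18). The mismatch repair gene Msh6 had 28.5, 23.2 and 25.9 CPM untreated and 33.1, 31.1 and 37.4 CPM at 2 weeks (0.39 ± 0.19), and Xrcc1, a scaffold of single-strand break repair, 57.99, 50.6 and 53.9 CPM untreated and 48.7, 45.5 and 43.1 CPM at 2 weeks (-0.24 ± 0.13). Both differences were below 0.5 on the log2 scale, in opposite directions.

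The genes that activate and detoxify DMBA showed no common direction. Of 16 measured genes of the aryl hydrocarbon receptor and DMBA metabolism, 10 were positive, with a median of 0.03. Cyp1a1, the oxidase most strongly induced by the receptor, had 13.3, 0.447 and 2.104 CPM untreated and 3.76, 8.32 and 15.5 CPM at 2 weeks (0.79 ± 1.11). Cyp1b1, the enzyme that activates DMBA outside the liver, had 16.7, 29.6 and 35 CPM untreated and 50.03, 17.1 and 24.7 CPM at 2 weeks (0.18 ± 0.65). Both overlapped widely. Ahrr, the repressor of the receptor and one of its targets, had 0.954, 0.614 and 0.997 CPM untreated and 1.3, 1.39 and 2.61 CPM at 2 weeks (1.04 ± 0.47, unadjusted p = 0.0428 by edgeR), at about 1 CPM in the untreated glands. Among 24 genes of the oxidative stress factor Nrf2 and of glutathione, 12 were positive. Gclc, the catalytic subunit for glutathione synthesis, had 41.6, 65.2 and 75.3 CPM untreated and 120.1, 103 and 154 CPM at 2 weeks (1.05 ± 0.35), without overlap. Nqo1, a quinone reductase under Nrf2 and the aryl hydrocarbon receptor, had 12.3, 17.4 and 12.7 CPM untreated and 14.01, 9.95 and 9.17 CPM at 2 weeks (-0.36 ± 0.26), and Fth1, ferritin heavy chain, 2229, 1829 and 1821 CPM untreated and 1262, 1407 and 1356 CPM at 2 weeks (-0.55 ± 0.25). Gclc and Fth1 thus separated the groups in opposite directions.

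Among 20 genes of the integrated stress response and the Gadd45 family, 7 were positive and 7 were lower without overlap (median -0.15). Phgdh, the first enzyme of serine synthesis, had 204, 174 and 182 CPM untreated and 69.8, 88.3 and 65.8 CPM at 2 weeks (-1.32 ± 0.50), less than 0.6 times the lowest untreated gland in every treated one. Gadd45a (-0.69 ± 0.45) and Gadd45b (-0.80 ± 0.46) lay below the untreated glands while Gadd45g lay above them. Of the 21 measured genes linked to senescence and its secretions, 7 were positive, and of the cell cycle inhibitors beside Cdkn1a, Cdkn2a had 3.43, 1.06 and 1.05 CPM untreated and 0.337, 0.372 and 0.799 CPM at 2 weeks (-1.86 ± 0.81). Cdkn2b, a related inhibitor, overlapped, with 5.64, 4.802 and 6.26 CPM untreated and 5.104, 4.602 and 15.6 CPM at 2 weeks (0.60 ± 0.49). Il6 had 5 reads in each group and was not tested.

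Lipid synthesis genes had positive values. All 16 genes of de novo lipogenesis were positive, with a median of 0.66 and 4 without overlap. At an unadjusted p under 0.05 there were 0, and 4 in the fit on the 6 WT libraries alone. The median was 0.33 without untreated gland 2 and 0.37 without 2-week gland 2, each with 15 positive, and 13 members were highest in 2-week gland 2 among the treated glands. Gpam, which starts triglyceride synthesis, had 90.5, 77.8 and 110.4 CPM untreated and 232, 159 and 299 CPM at 2 weeks (1.31 ± 0.64), and Pnpla3, a lipid droplet gene, 364, 219 and 425 CPM untreated and 541, 685 and 892 CPM at 2 weeks (1.07 ± 0.97). Both named genes were highest in gland 3, unlike most of the list. Cholesterol synthesis genes had a median of 0.24, with 18 of 21 positive and 5 higher without overlap, and one of 0.15 without untreated gland 2 and 0.47 without 2-week gland 1. Sqle, squalene epoxidase, had 16.9, 15.02 and 25.9 CPM untreated and 27.9, 34.1 and 54.3 CPM at 2 weeks (1.01 ± 0.43). White fat markers leaned the other way: 21 of 25 were negative, with a median of -0.23 (-0.11 without untreated gland 1 and -0.15 without 2-week gland 3), and Adipoq, the hormone adiponectin, had 3347, 3552 and 3413 CPM untreated and 2588, 3016 and 2057 CPM at 2 weeks (-0.43 ± 0.56). In Cip2a-/- glands the lipogenesis median was -0.66, with 3 of 16 positive.

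Lymphocyte markers were low in all treated WT glands. All 15 B cell markers were negative, with a median of -5.08, and 14 did not overlap. Cd79a, a chain of the B cell receptor, had 137, 8.598 and 1.99 CPM untreated and 1.01, 0.837 and 0.799 CPM at 2 weeks (-5.798 ± 2.169, adjusted p = 0.953 by edgeR). Blk, a B cell kinase, had 33.6, 6.53 and 3.77 CPM untreated and 0.289, 0.418 and 0.337 CPM at 2 weeks (-5.37 ± 1.75). The untreated glands themselves differed widely for both genes, with gland 1 far above the others, while the treated glands were nearly level. Without that gland the list median was -2.60. Summed B cell markers were 799.6, 83.7 and 32.7 CPM untreated and 18.4, 16.5 and 15.9 CPM at 2 weeks. T and natural killer cell markers summed to 371, 84.98 and 69.3 CPM untreated and 63.8, 52.3 and 67.1 CPM at 2 weeks, with a median of -1.63 and 2 of 24 positive, Ncr1 and Gzma, both of natural killer cells. Without untreated gland 1 that median was -0.20.

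Markers of lymph node stroma were mixed. Cxcl13, the chemokine that gathers B cells into follicles, had 21.4, 4.41 and 1.77 CPM untreated and 0.241, 0.558 and 1.22 CPM at 2 weeks (-3.75 ± 1.92), and Ccl19, a T zone chemokine, 32.1, 3.74 and 1.38 CPM untreated and 0.626, 1.02 and 0.968 CPM at 2 weeks (-3.82 ± 1.98). Of 10 members tested, 8 were negative (the positive ones being Madcam1 and Glycam1, the latter also on the milk list) and 5 lower without overlap (median -2.26, and -1.13 without untreated gland 3), while Ccl21a and Ccl21b had 0 reads in both groups. Summed over the list, levels overlapped, at 418, 738 and 866 CPM untreated and 664, 227 and 218 CPM at 2 weeks. Most reads of that sum were of Fcgbp (21645 untreated and 11009 at 2 weeks) and Enpp2 (13754 and 11646). The sum was lowest in untreated gland 1 among the untreated glands. Cxcl13 and Ccl19, by contrast, were highest in untreated gland 1, as the B cell sums were. Lymph nodes were excluded from the tissue, and the part of remaining node tissue in untreated gland 1 was not tested. Class II antigen presentation genes had a median of -0.67, with 13 of 16 negative, and one of -0.24 without untreated gland 1. Macrophage genes had a median of -0.16, with 15 of 21 negative. Plasma cell genes had one of -0.34, with 7 of 10 negative, but single values ranged from -5.44 to 0.33. Of them 3 had an unadjusted p under 0.05, each lower, and 0 did without untreated gland 1. Neutrophil genes had a median of -0.95, with 12 of 14 negative, and one of -0.53 without untreated gland 3. Several neutrophil genes had few reads, such as Mpo with 7 untreated and 1 at 2 weeks. With the filter on the 6 WT libraries, 8 neutrophil genes remained, with a median of -0.48. For summed macrophage markers the groups overlapped, at 1615, 1193 and 1438 CPM untreated and 1230.2, 1186 and 1494 CPM at 2 weeks.

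Mast cell genes were lower without such a single gland. All 10 members tested were negative, 9 without overlap, with a median of -1.47 and a range of -1.74 to -1.18 over the alternatives. Tpsb2, a mast cell tryptase, had 42.4, 63.5 and 39.99 CPM untreated and 6.69, 20.5 and 16.5 CPM at 2 weeks (-1.74 ± 0.71). The chymase gene Cma1 had 33.2, 41.8 and 32.3 CPM untreated and 5.68, 13.9 and 14.2 CPM at 2 weeks, and Mcpt4 50.5, 72.4 and 49.6 CPM untreated and 7.56, 21.5 and 25.1 CPM at 2 weeks. In each of these 3 protease genes every treated gland held less than 0.6 times the level of the lowest untreated gland, with gland 1 the lowest. The Cip2a-/- glands overlapped for these genes, with Tpsb2 at 15.6, 36.9 and 55.3 CPM untreated and 8.98, 16.6 and 24.3 CPM at 2 weeks (-1.11 ± 0.70), and 10 of 10 members were negative there (median -0.83). Kit, which epithelial progenitors also express, is the 1 member that overlapped in WT (-0.03 ± 0.77).

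Skeletal muscle RNA varied widely within both groups. Acta1, skeletal α-actin, had 7170.2, 1074 and 44.6 CPM untreated and 34.1, 485 and 1149 CPM at 2 weeks (-2.31 ± 2.32), and all 22 muscle genes overlapped. Summed muscle markers were 47661, 7525 and 204 CPM untreated and 263, 2999.6 and 9483 CPM at 2 weeks, so untreated gland 1 was highest and untreated gland 3 lowest. The list median of -2.06 turned to 0.13 without untreated gland 1 and to 0.31 with limma-voom.

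**Figure D3:**
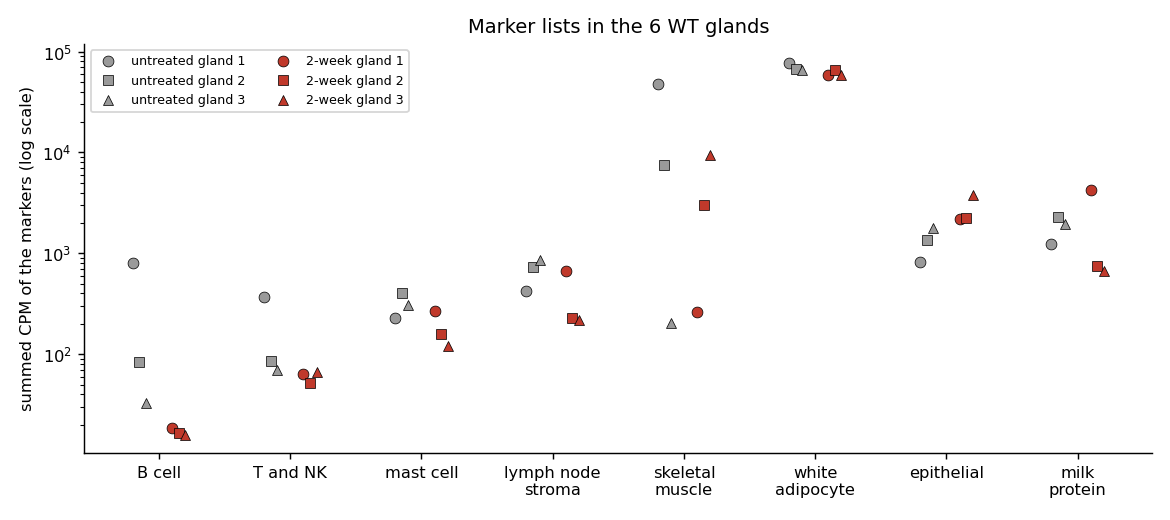
Summed CPM (log axis) of 8 marker lists in the 6 WT glands. Grey symbols are untreated and red symbols 2-week glands, with circles, squares and triangles for glands 1, 2 and 3; B cell sums of 15.9 to 18.4 CPM in the treated glands lie below the untreated 32.7 to 799.6, while muscle sums overlap.

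Genes of vessels and connective tissue had values of both signs. Postn, periostin, a matrix protein of activated fibroblasts, had 122, 289.7 and 396 CPM untreated and 573, 1351 and 634 CPM at 2 weeks (1.66 ± 0.61), and Col3a1, a fibrillar collagen gene, 1209.8, 1756 and 1937 CPM untreated and 2229.8, 5225 and 3204 CPM at 2 weeks (1.12 ± 0.76). Neither overlapped, and gland 2 was highest in both. Of 26 fibroblast and collagen genes 18 were positive, 5 without overlap (median 0.22, 0.07 without untreated gland 1 and 0.12 without 2-week gland 2), and 25 were positive in Cip2a-/- (median 0.65). Rgs5, a pericyte gene, had 29.8, 41.7 and 59.6 CPM untreated and 86.3, 78.1 and 64.3 CPM at 2 weeks (0.80 ± 0.34), and 8 of 9 genes of pericytes and smooth muscle were positive (median 0.33). Endothelial genes had a median of -0.09, with 16 of 20 negative and 6 lower without overlap. Beside Plvap these included Sox18 (-0.53 ± 0.31), Thbd (-0.42 ± 0.25), Emcn (-0.24 ± 0.25), Egfl7 (-0.34 ± 0.31) and Flt4 (-0.38 ± 0.37). The 4 positive members were Cdh5 (0.09 ± 0.38), Kdr (0.20 ± 0.35), Flt1 (0.15 ± 0.33) and Prox1 (1.48 ± 1.15), the last at under 1 CPM in every gland.

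Ribosomal protein genes had slightly lower values with few exceptions. Of 84 measured, 82 were negative, with a median of -0.37, and for 70 the treated glands lay below all untreated ones. At an unadjusted p under 0.05, 3 were lower, and 61 were in the fit on the 6 WT libraries alone. Rps2 had 597, 417 and 458 CPM untreated and 335, 312 and 369 CPM at 2 weeks (-0.53 ± 0.24), and Rplp2 had 534, 361 and 390.4 CPM untreated and 276, 302 and 355 CPM at 2 weeks (-0.46 ± 0.20). The 2 positive members were Rps27l (0.38 ± 0.22), which p53 controls, and Rpl7l1 (0.12 ± 0.17). These transcripts are short, with a median length of 1108 bases against 3295 over all genes with a length. Reads of ribosomal protein genes and their near-identical pseudogenes may be split or lost in counting. In Cip2a-/- glands the list median was -0.28, with 6 of 84 positive and 1 higher and 1 lower without overlap.

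Transcript length and GC content both went with the WT comparison as a whole. Within each library, log2 CPM relative to the mean of all libraries was regressed on length and GC content over 14279 genes. The slope per doubling of length was -0.07, 0.00 and 0.02 in the untreated WT glands and 0.11, 0.08 and 0.06 at 2 weeks. The groups did not overlap (exact two-sided permutation test, p = 0.1, the smallest that 3 against 3 can give). In Cip2a-/- glands the slopes were 0.08, 0.05 and -0.04 untreated and 0.11, 0.00 and 0.01 at 2 weeks, with overlap. The slope per 10 points of GC content also separated the WT groups. It was 0.16, 0.01 and 0.03 in untreated WT glands and -0.11, -0.06 and -0.08 at 2 weeks. In Cip2a-/- glands it was -0.19, -0.03 and -0.02 untreated and -0.24, -0.12 and -0.04 at 2 weeks, with overlap. Over 5 classes of genes by length, from shortest to longest, the median log2 fold change in WT was -0.16, -0.10, -0.03, 0.04 and 0.22. Genes with an unadjusted p under 0.05 and a higher value numbered 23 in the shortest class and 248 in the longest, and those with a lower value 71 and 14. The 10 named genes with higher values had a median length of 6149 bases and the 10 with lower values one of 2195 bases. Their median GC contents were 49.8% and 58.2%. In Cip2a-/- the class medians lay between -0.01 and 0.04. With each library's trend on length and GC content taken out as an offset, 495 genes in place of 655 had an unadjusted p under 0.05. The ribosomal protein median was then -0.20, Gdf15 had a value of 4.82, Atp6v0e2 of -0.92, and the p53 targets a median of 0.54. This check was added after the values were known, and the sources used here give no RNA quality values.

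**Figure D4:**
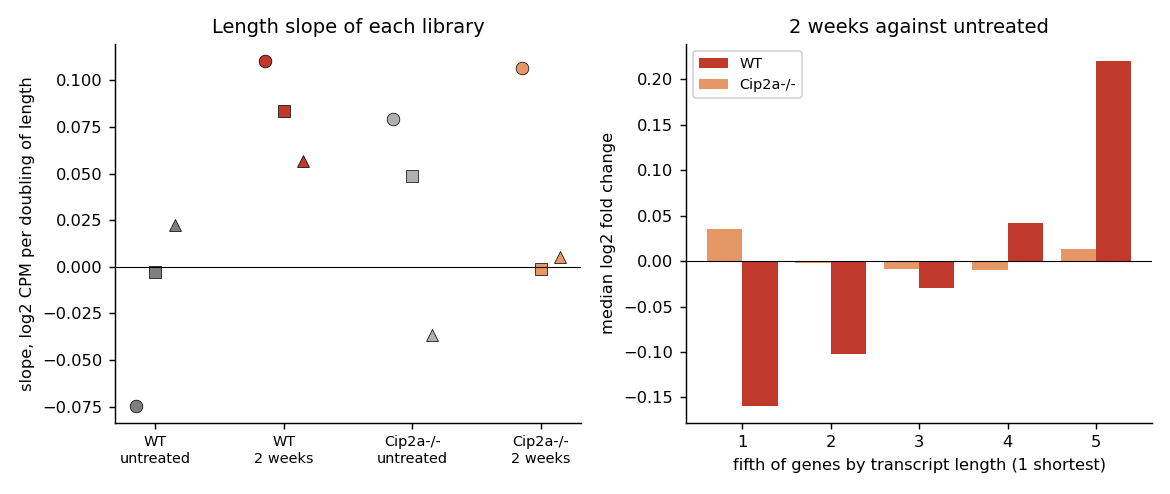
Left, slope of log2 CPM per doubling of transcript length for each of 12 libraries, by group. Right, median log2 fold change (2 weeks over untreated) of genes in 5 classes of transcript length from shortest (1) to longest (5), in WT (red) and Cip2a-/- (orange); the WT medians run from -0.16 to 0.22 and those of Cip2a-/- from -0.01 to 0.04.

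The remaining lists differed in how far they lay from the median of all genes. Nuclear genes of oxidative phosphorylation had a median of -0.07 over 27 members, ribosome biogenesis genes -0.07 over 22, hypoxia and glycolysis genes -0.06 over 20 and interferon-stimulated genes 0.09 over 28. PP2A subunits and inhibitors had one of -0.01 over 21, and Cip2a was the member with the largest value (1.11 ± 0.54). Circadian genes had a median of -0.22 over 20, within which Clock, a core activator of the cycle, had 16.7, 31.8 and 28.96 CPM untreated and 42.6, 42.03 and 56.3 CPM at 2 weeks (0.86 ± 0.32). The sources used here do not give the hour of sampling. Immediate early genes, which also respond to handling of tissue, had a median of 0.03 over 25, genes of glucocorticoids and metallothioneins -0.11 over 16 and heat shock genes 0.23 over 15. Farther from it were epidermis genes (0.61, 7 of 10 positive), brown fat genes (0.42, 9 of 12 positive), erythroid genes (-0.48, 0 of 5 positive) and Schwann cell and nerve genes (-0.26, 1 of 11 positive). None of these last 4 lists held a gene with an unadjusted p under 0.05 in the fit on 18 libraries. On the 6 WT libraries alone, 3 brown fat genes were higher at that p. One gene each of epidermis and of Schwann cells and nerve was lower. Epidermis reads were few, such as 2 untreated and 40 at 2 weeks for Krt77. With the filter on the 6 WT libraries, 6 epidermis genes remained, with a median of 0.12 and 3 positive.

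**Figure D5:**
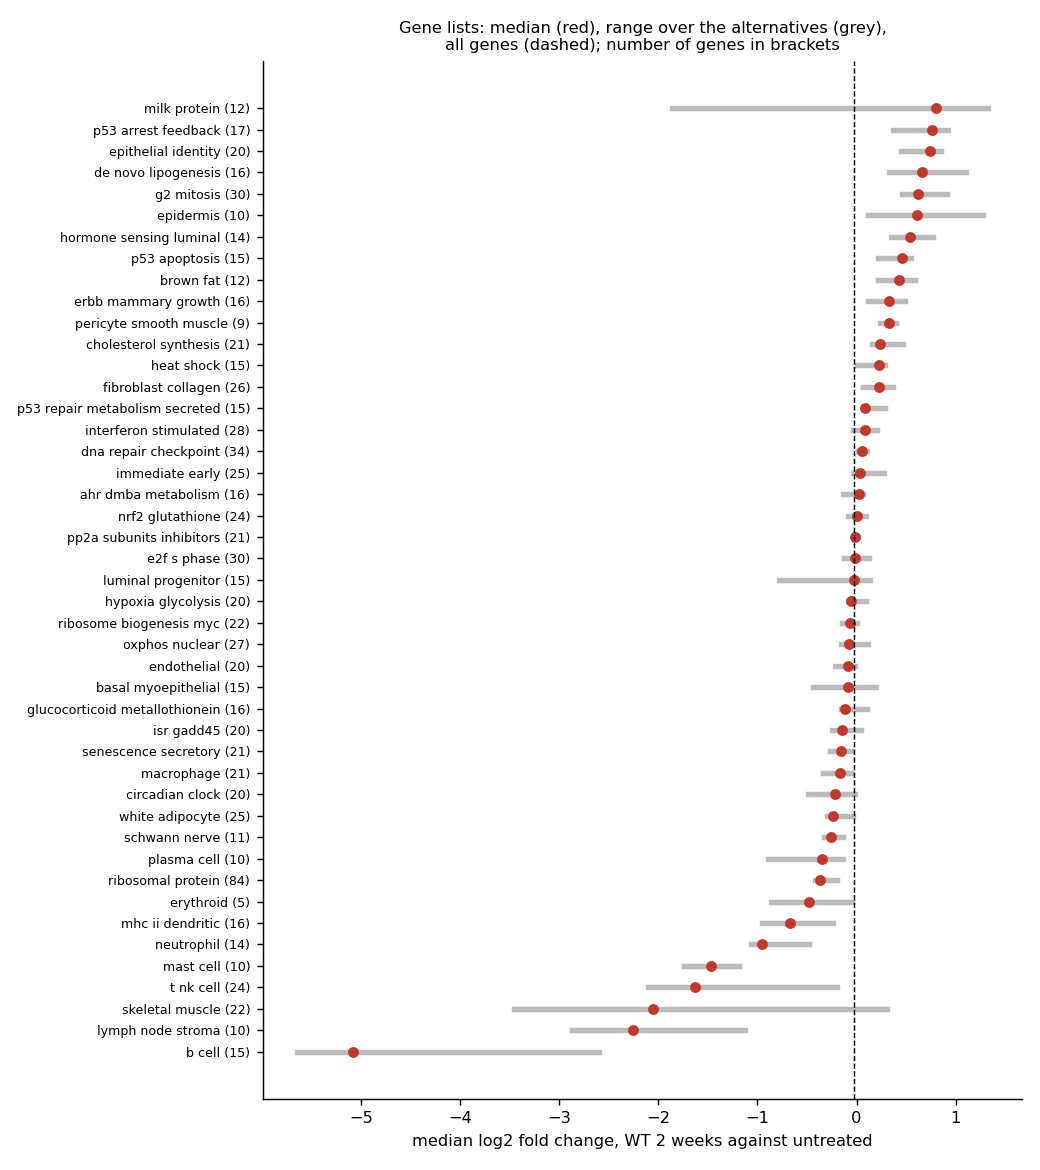
Median log2 fold change (WT, 2 weeks over untreated) of each gene list (red point), with the number of genes tested in brackets. Grey bars span the medians over 16 alternative fits and the dashed line is the median of all genes, -0.02; the p53 and epithelial bars stay above 0, those of B cells and mast cells below 0, and those of milk and muscle cross it.

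At the endpoint, the time at which mice were killed because of tumours, the same untreated libraries serve as controls, so the later levels are given side by side only. Of 15482 genes, 5 (0.0323%) were called there against untreated WT. Gdf15 stood at 1.14, 1.703 and 4.17 CPM, Cdkn1a at 68.9, 109 and 135 CPM, and Agps at 41.3, 72.1 and 34.6 CPM. Gdf15, Cdkn1a and Agps were thus lower in each endpoint gland than in any 2-week gland. The numbers in the names of the endpoint WT libraries all lie below those of the 2-week ones. A difference between cohorts of mice therefore cannot be told apart from time here either. Gadd45g stood at 76.4, 111 and 82.3 CPM, within the 2-week range. Atp6v0e2 stood at 25.3, 19.6 and 23.3 CPM, at the 2-week level, and passed the test against untreated (adjusted p = 0.0225 by edgeR).

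A pair of neighbouring genes on chromosome 1 had lower values in every 2-week WT gland than in any untreated WT gland. They fall outside the rule for named genes, having locus names, and were chosen after their values were seen. Gm7609 (chr1:85199592-85215398, GRCm38) had 7.11, 3.57 and 6.98 CPM untreated and 0.0963, 0.0465 and 0.0841 CPM at 2 weeks, so few reads in the treated glands that no fold is given. C130026I21Rik (chr1:85241286-85282883) had 68.7, 21.4 and 28.3 CPM untreated and 0.915, 0.697 and 3.53 CPM at 2 weeks (-4.51 ± 1.00), and -5.26 ± 1.04 in Cip2a-/-. The numbers in the names of the 2-week libraries lie above those of the untreated ones in Cip2a-/- too. Cohort and treatment therefore cannot be told apart in either genotype. The region holds near-identical gene copies among which reads may be split, and the mice were of mixed background, whose part in these values was not tested.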

How the data were processed

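RNA of whole mammary gland was sequenced in 18 libraries, 3 for each of 6 groups. Libraries were made with a stranded mRNA kit, per the labels' protocols. The authors deposited 1 table of whole-number read counts per gene, not normalised, for 23337 gene symbols. The submitters' processing notes name bcl2fastq 2.17, STAR 2.5.2b, Subread 1.5.1 and the build mm10 without settings. The sources used here do not give the annotation and the strand setting, so overlapping and antisense genes are uncertain.

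Groups were taken from the labels. Counts were filtered with filterByExpr, scaled by TMM and tested in R 4.3.3 with edgeR 4.0.16 (quasi-likelihood F-test, all 18 libraries, 1 term per group, Benjamini-Hochberg adjustment over 15482 genes, threshold 0.05). The standard error is the absolute log2 fold change divided by the square root of F. The procedure was tested on simulated counts. Alternatives were DESeq2 1.42.0, limma 3.58.1 (voom with quality weights), other scalings and filters, the 6 WT libraries alone, the replicate number as a block, and each WT library left out. Named genes were the 10 of smallest p in each direction (mean of at least 5 CPM over the WT libraries, no overlap, no locus name), up to 4 of smallest p per list, and a fixed set of 15 that includes Trp53, Cyp1a1 and Epcam. Members and gene lists were chosen with earlier results of these data known. Chosen after values were seen were 2 alternatives (3 libraries left out of the shared spread, and an offset for length and GC content), the promoter search, and any gene named outside that rule, such as Ccng1, Gm7609, C130026I21Rik and Atp6v0e. Transcript lengths came from GENCODE vM21, matched for 19533 genes by identifier and 1787 by symbol, and coordinates and promoters from RefSeq (GRCm38.p6).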

Additional observations from a re-analysis of the deposited data

Results flagged for a closer look

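In 5 of the 122 tested genes named in the text, the glands of the WT and Cip2a-/- mice went in opposite directions. Treated and untreated glands did not overlap in either genotype. Of all 15482 genes tested, 154 (0.995%) did so, 86 with lower and 68 with higher values in treated WT glands, so the 5 are not a full list. Some genes were named because they had no overlap in WT, so the 2 shares cannot be compared. The difference of the responses (WT minus Cip2a-/-, log2) was -1.71 for Atp6v0e2, with an adjusted p of 0.0946 by edgeR. It was -1.32 for Gadd45a, a stress gene of growth arrest, -1.02 for Thbd, the endothelial anticoagulant thrombomodulin, -0.88 for Mtap7d1, a microtubule-associated protein gene, and -0.70 for Fth1. The adjusted p of these 4 was 0.999 by edgeR. None of the 5 passed the test of the difference.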

How the results depend on the processing

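The count of genes called in WT was 0 under other edgeR scalings, filters, the 6 WT libraries alone, the length and GC offset and each WT library left out (0 to 0). It was 17 with DESeq2, 528 with limma-voom, and 1 (Gm7609, adjusted p = 0.0466 by edgeR, against 0.000147 with DESeq2 and up to 1.00 without untreated gland 1) with 3 libraries of other groups left out of the shared spread, so calls depend on the tool. In Cip2a-/- the 2 calls became 36 with DESeq2, 1 with limma-voom and 0 to 3 with 1 WT library left out. For the difference of the responses the 0 calls became 1 with upper quartile scaling, 7 with DESeq2 and 13 with limma-voom. Replicate numbers did not pair the glands (correlations of same-numbered deviations -0.47, -0.10 and -0.34), and with the replicate block 0 genes were called and 691 had an unadjusted p under 0.05. With the 6 WT libraries alone, 2648 genes had an unadjusted p under 0.05, against 655 in the main fit.

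Among the genes named, these values without a call changed sign, and the cause was not tested. With the replicate block Csn2 stood at -0.27, Kit at 0.083 and Krt14 at 0.12. With limma-voom Csn2 stood at -4.00, Cyp1b1 at -0.30 and Pmaip1 at 0.013, and with the filter at a mean of 1 CPM Xpc stood at -0.00084. With 1 WT library left out, the log2 fold change ranged from -3.53 to 2.59 for Csn2, from -0.37 to 0.44 for Cyp1b1, from -0.69 to 0.047 for Krt14, from -1.23 to 0.40 for Kit, from -0.28 to 0.96 for Madcam1, from -4.34 to 0.45 for Tnfsf11 and from -0.49 to 0.25 for Pmaip1. It ranged from -0.11 to 0.25 for Cdh5, from -0.14 to 0.062 for Ddb2, from -0.18 to 0.016 for Fas, from -0.061 to 0.22 for Rpl7l1 from -0.20 to 0.87 for Cdkn2b, from -0.040 to 0.33 for Flt1 and from -0.042 to 0.10 for Xpc. Csn2 and Madcam1 turned without 2-week gland 1, Cdkn2b without 2-week gland 3, and Tnfsf11 without untreated gland 3.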
